A study of Mus musculus with 18 samples.

Results

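The region described here is the downstream flank of the mouse alpha-globin genes, which runs from the last captured Hba fragment across Sh3pxd2b, Ubtd2, Efcab9 and Stk10 into Fbxw11. It was defined by position alone, as every DpnII fragment on chromosome 11 between 32197599 and 32600000 (mm9), and was read from the Hba promoter viewpoint. The 402402 bp held 867 DpnII fragments of the 295450 on chromosome 11. In the promoter capture 833 of the 867 had a read in at least 1 of 9 libraries, and the 34 without one were short, with a median length of 11 bp against 335 bp. Over the whole chromosome 73153 fragments had a read.

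The study used NG Capture-C, a chromosome conformation capture method in which crosslinked chromatin is digested with DpnII, religated and enriched by oligonucleotides for chosen viewpoints, to follow which fragments contact promoters and enhancers during endoderm formation. The 3 cell types were mouse embryonic stem cells (ESC; day 0, strain 129/Sv//EV, grown in serum with LIF), definitive endoderm derived from such cells (DE; day 5, 129/Sv//EV) and erythrocytes (C57BL/6). DE was obtained by aggregating ESC without LIF into embryoid bodies and moving them on day 2 to N2B27 with activin A and EGF. Erythrocytes were dissociated from the spleens of mice given phenylhydrazine, an agent that lyses red cells and fills the spleen with their precursors, and no sort is given in the labels, so the part of other spleen cells was not tested. Each cell type had 3 libraries, which the series describes as biological replicates, and the same 9 libraries were captured once for promoters and once for enhancers. ESC and DE share a strain, whereas cell type and strain cannot be told apart in either comparison with erythrocytes. The files used here hold no RNA levels, so the cell types were not checked against marker genes.

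Hba-a1 and Hba-a2 encode the alpha chains of adult haemoglobin and are transcribed at high level only in erythroid cells. Their enhancers lie on the upstream side, in and around the introns of the housekeeping gene Nprl3, and contact the promoters when the locus is active. CTCF is a zinc finger protein at which cohesin-driven loops tend to halt, in a manner that depends on the orientation of its motif, and its sites border the active globin domain. Most genes of the downstream flank have functions outside the red cell: Hbq1a belongs to the theta-globins, Sh3pxd2b encodes a scaffold protein of podosomes, Ubtd2 a protein with a ubiquitin-like domain, Efcab9 a calcium-binding subunit of the sperm CatSper channel, Stk10 a serine/threonine kinase of lymphoid cells, and Fbxw11 a substrate-binding subunit of an SCF ubiquitin ligase. In the mm9 annotation Hbq1a spans chr11:32200069-32200873 and starts 2.47 kb into the flank. Sh3pxd2b (chr11:32247820-32328173), Ubtd2 (chr11:32355370-32416687) and Stk10 (chr11:32433305-32524587) lie on the plus strand, Efcab9 (chr11:32422751-32432081) on the minus strand. Fbxw11 (chr11:32542724-32646816, plus strand) runs past the end of the flank.

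The sequences below carry the features to which the contact values refer. The CTCF core motif, 14 bases long, was searched on both strands of the mm9 reference with at most 1 mismatch, and gave 22 matches in the flank. They fell in 20 of 80 consecutive 5 kb bins (25.0%), against 14.4% of the 23745 bins of the same length on chromosome 11. Of the 7 matches in the first 50 kb, the 5 nearest to the globin genes were on the minus strand and the other 2 on the plus strand. All 7 lie between genes, and the first lies directly before the start of Hbq1a. Each line gives a match with 17 bases to each side, read 5′ to 3′ on the strand named, and capitals mark the 14 bases of the motif.
chr11:32200020-32200067, minus strand: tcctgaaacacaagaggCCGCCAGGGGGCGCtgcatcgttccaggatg
chr11:32215755-32215802, minus strand: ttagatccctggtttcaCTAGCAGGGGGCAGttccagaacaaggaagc
chr11:32221376-32221423, minus strand: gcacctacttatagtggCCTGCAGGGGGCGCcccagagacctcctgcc
chr11:32234266-32234313, minus strand: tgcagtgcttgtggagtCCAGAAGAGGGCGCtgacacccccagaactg
chr11:32241275-32241322, minus strand: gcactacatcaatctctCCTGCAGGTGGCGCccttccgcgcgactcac
chr11:32242889-32242936, plus strand: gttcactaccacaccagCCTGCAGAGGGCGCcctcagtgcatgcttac
chr11:32242925-32242972, plus strand: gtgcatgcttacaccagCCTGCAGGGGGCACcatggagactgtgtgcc

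Only 1 of the 22 matches had no mismatch. It lies between Stk10 and Fbxw11, 328.3 kb into the flank, and is shown for that reason alone. The loss of contact in erythrocytes became smaller past 340 kb, and 2 further matches lie nearer to that point. They are at 331.8 kb (plus strand) and 336.1 kb (minus strand), in bins that changed by -2.27 and -2.01 against ESC. A link between any match and the change was not tested.
chr11:32525844-32525891, plus strand: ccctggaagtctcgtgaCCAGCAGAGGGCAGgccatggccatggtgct
The window before Hbq1a was identical in 48 of 48 bases to the one before Hbq1b, its near copy between Hba-a1 and Hba-a2, which is printed for comparison. Reads from these copies may have been assigned to either, so values close to Hbq1a are uncertain.
chr11:32186915-32186962, minus strand, before Hbq1b: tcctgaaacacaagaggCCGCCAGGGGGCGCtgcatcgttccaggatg
A match is a stretch of letters and not a bound site, since CTCF binding was not measured. The GATA motif (AGATAA or TGATAA, on both strands), to which erythroid GATA factors bind, was in 78 of the 80 bins (97.5%) and in 98.9% of bins of chromosome 11, and so did not single out any stretch of the flank.

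The Hba viewpoint gave 52684 to 84184 reads per ESC library, 100220 to 192158 per DE library and 26659 to 86404 per erythrocyte library. The share of reads on chromosome 11 was 65.3 to 73.0% in ESC and 62.8 to 65.9% in DE, but 27.9, 71.7 and 26.5% in erythrocyte replicates 1, 2 and 3, so the second erythrocyte library stood apart from the other 2. Erythrocyte replicates 1 to 3 thus held 24077, 19125 and 9919 reads on the chromosome, and 1 read was worth 4.15, 5.23 and 10.1 interactions per 100000 there, against 0.789 to 2.91 in the other 6 libraries. All levels given here are interactions per 100000 on chromosome 11, so differences between cell types are differences in how the contacts were distributed along the chromosome.

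The flank took up less of the Hba promoter's contacts in erythrocytes than in either other cell type, and less in DE than in ESC. It held 24.6, 24.8 and 24.0% of the chromosome 11 interactions in the ESC libraries (24.5% ± 0.401, SD, n = 3). In DE it held 20.0, 19.9 and 19.5% (19.8% ± 0.242, SD, n = 3), and in erythrocytes 11.3, 12.3 and 14.1% (12.6% ± 1.43, SD, n = 3). No 2 cell types overlapped, and the 95% Wilson interval of the shallowest library, erythrocyte replicate 3, was 13.5 to 14.8%. Intervals cover counting error only.

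The erythrocyte share was 1.94-fold below that of ESC (log2 ratio -0.96, a difference of -11.9 percentage points) and 1.57-fold below that of DE (log2 ratio -0.65, -7.22 points). The DE share was 1.24-fold below that of ESC (log2 ratio -0.30, -4.65 points). Each of the 3 comparisons gave p = 0.1 in an exact two-sided permutation test over libraries, which is the smallest p that 3 libraries against 3 allow, and 0.1 after Benjamini-Hochberg adjustment over the 3. The erythrocyte library with the high chromosome 11 share lay between the other 2.

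The Hba column of the enhancer capture leaves the same promoter fragments without a value as that of the promoter capture, and was read as the same promoter viewpoint captured a second time, not as an enhancer viewpoint. It gave close values from the same 9 libraries, which are therefore not new samples. There the flank held 23.6 to 25.0% in ESC, 19.6 to 20.2% in DE and 11.9 to 12.9% in erythrocytes, with log2 ratios of -0.98, -0.69 and -0.30 for erythrocytes over ESC, erythrocytes over DE and DE over ESC.

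**Figure D1:**
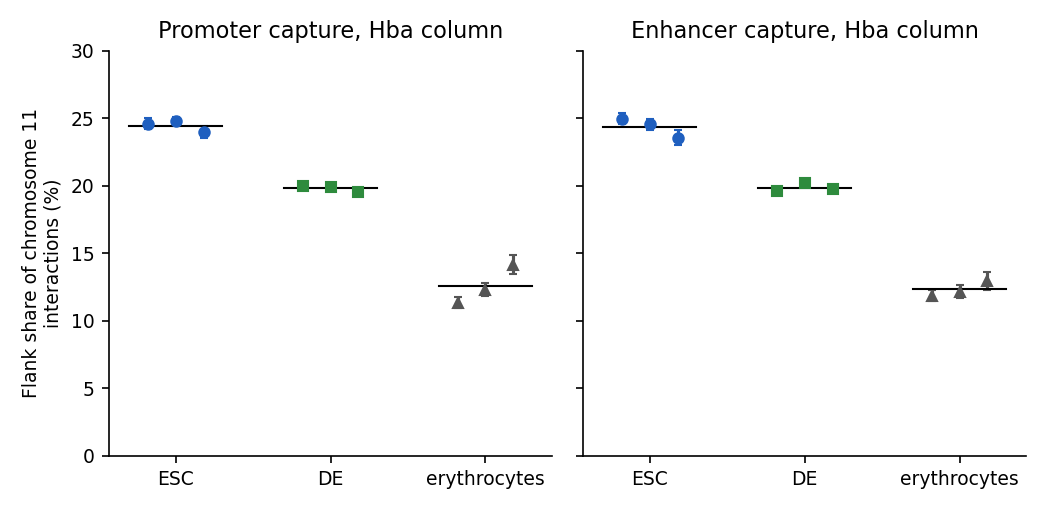
Share of chromosome 11 interactions of the Hba viewpoint that fell in the downstream flank, in percent, for each library of the promoter capture (left) and the enhancer capture (right). Points are single libraries with 95% Wilson intervals and horizontal lines are means of 3 libraries; in the promoter capture all ESC libraries lay at 24.0% or above, DE between 19.5 and 20.0%, and erythrocytes between 11.3 and 14.1%.

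What the share was taken of mattered for its size. Interactions within 20 kb of the captured fragments made up 27.2 to 29.5% of the chromosome 11 total in ESC and 22.6 to 23.1% in DE, but 29.8, 34.3 and 48.8% in the erythrocyte libraries. With these left out of the total, but with the flank still summed from its start, the log2 ratio of erythrocytes over DE was -0.30 and the libraries overlapped (exact two-sided permutation test, p = 0.4), while that of erythrocytes over ESC was -0.71. With the first 20 kb left out of the flank instead, the same ratios were -1.67 and -2.00. Part of the total thus lay in the first kilobases next to the viewpoint, and the flank was next divided by distance.

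The loss of contact in erythrocytes began after the first few kilobases, grew up to 200 kb and was smaller again at the far end. In the first 20 kb of the flank the level was 421 ± 1.12 interactions per kb in ESC, 353 ± 6.10 in DE and 427 ± 105 in erythrocytes (mean ± SD, n = 3), where the 3 erythrocyte libraries gave 355, 380 and 547. The erythrocyte libraries lay on both sides of the ESC level here (p = 1 by permutation of the libraries, exact and two-sided). The comparison with DE gave p = 0.3 in the same exact test. Without erythrocyte replicate 3 the log2 ratio of erythrocytes over ESC was -0.20 in place of 0.02.

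From 20 to 50 kb, the level was 140 ± 5.15 interactions per kb in ESC, 128 ± 2.87 in DE and 57.0 ± 12.2 in erythrocytes. From 50 to 100 kb, where Sh3pxd2b begins, it was 61.7 ± 2.36, 45.7 ± 0.761 and 14.0 ± 1.46. From 100 to 200 kb it was 38.3 ± 0.516, 28.5 ± 0.183 and 6.83 ± 1.52. From 200 kb to the end of the flank it was 24.3 ± 0.967, 18.7 ± 0.156 and 4.57 ± 1.29 (SD, n = 3 each). In each of these 4 windows every erythrocyte library lay below every DE library, and every DE library below every ESC library.

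The fold by which ESC exceeded erythrocytes was thus 2.46 at 20 to 50 kb, 4.41 at 50 to 100 kb, 5.61 at 100 to 200 kb and 5.33 beyond. For DE over erythrocytes it was 2.24, 3.27, 4.17 and 4.10. ESC exceeded DE by 1.10, 1.35, 1.35 and 1.30-fold. All 12 comparisons beyond 20 kb gave p = 0.1 in the exact two-sided permutation test (0.12 after adjustment over 15). In the first 20 kb DE lay below ESC by 1.19-fold, without overlap (exact p = 0.1).

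**Figure D2:**
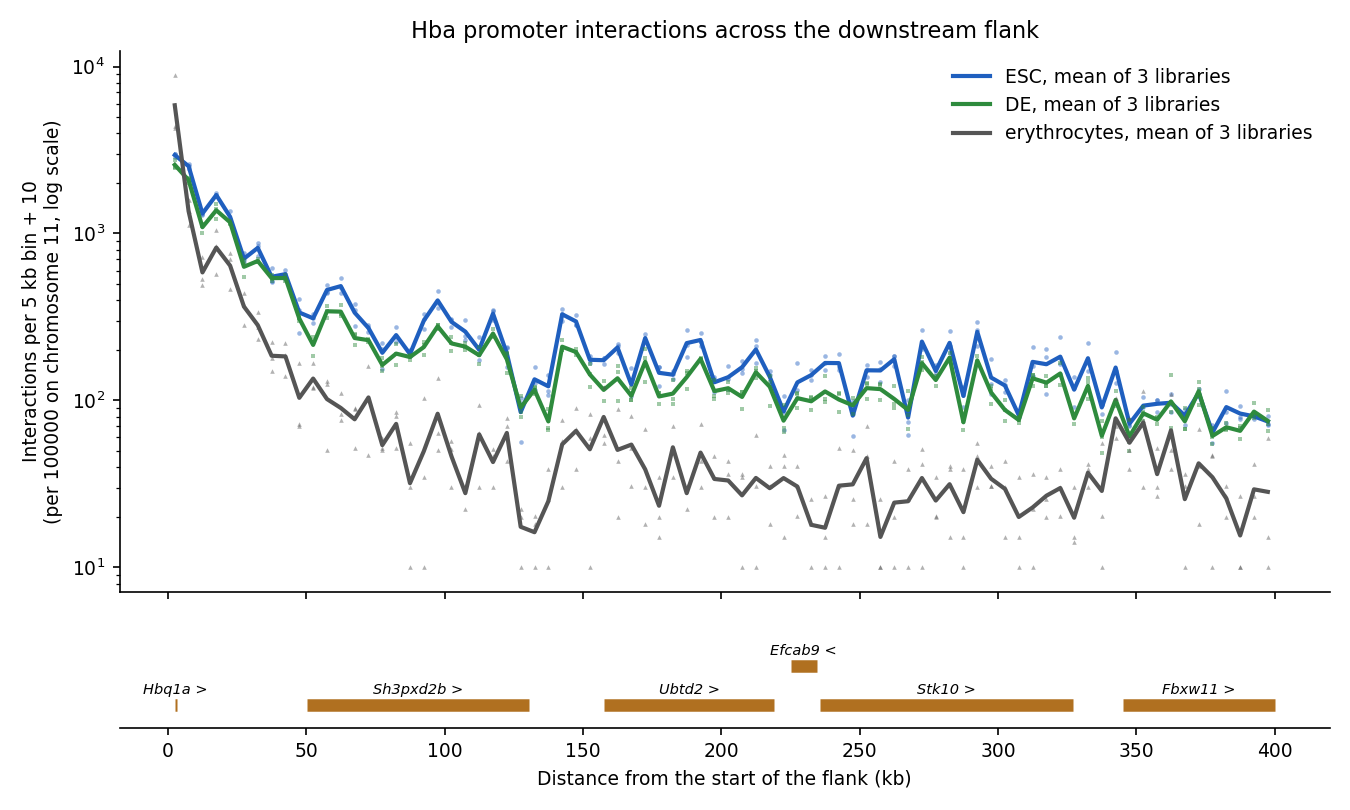
Interactions of the Hba promoter viewpoint per 5 kb bin of the downstream flank plus 10, per 100000 on chromosome 11 (log axis), against the distance from the start of the flank in kb, with the annotated genes and their direction drawn to scale. Lines are means of 3 libraries and points single libraries; the erythrocyte line starts above the others in the first bin, crosses them in the second and lies below both over the rest of the flank.

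The steeper fall with distance was also seen in the slope of log10 interactions per kb on log10 distance, fitted per library over 20 kb steps. The slope was -0.82 ± 0.0133 in ESC, -0.84 ± 0.00931 in DE and -1.21 ± 0.134 in erythrocytes (SD, n = 3). The 3 erythrocyte libraries, at -1.11, -1.16 and -1.36, lay below all others (exact two-sided permutation test, p = 0.1, adjusted 0.15). DE and ESC overlapped (difference -0.02, exact p = 0.2).

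At the very start of the flank, next to Hba-a2, erythrocytes were higher per 100000 on chromosome 11, while per 100000 of all interactions their libraries overlapped those of the other cell types. The first 5 kb bin, which holds Hbq1a and a CTCF match, had 2966, 2874 and 2977 interactions in the ESC libraries, 2448, 2504 and 2752 in DE and 4415, 4293 and 8842 in erythrocytes. All 3 erythrocyte libraries lay above all others, with the third the highest. The change against ESC was 0.91 ± 0.42 (log2 fold change ± SE, limma adjusted p = 0.16) and against DE 1.10 ± 0.32 (limma adjusted p = 0.076), so the bin was not called in either comparison. Of all interactions it held 2.16, 2.03 and 1.94% in ESC, 1.60, 1.65 and 1.73% in DE and 1.23, 3.08 and 2.34% in erythrocytes, where the first library lay below all others, and the changes on that total were 0.02 ± 0.48 and 0.32 ± 0.36 (limma adjusted p = 0.99 and 0.56). Changes of bins, genes and fragments are on the log2(level + 10) scale throughout, which understates those of low levels.

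In the next bin, from 5 to 10 kb, the order had turned. The ESC libraries gave 2440, 2609 and 2509 interactions, the DE libraries 2151, 2097 and 1984, and the erythrocyte libraries 1354, 1584 and 1109. Again no cell types overlapped, and neither erythrocyte comparison was called (limma adjusted p = 0.13 against ESC and 0.12 against DE).

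Single fragments placed the turn. The 3 fragments of the flank with the highest mean over the 9 libraries were its first 3, over the first 1.89 kb. The fragment chr11:32197599-32198003 had 578, 475 and 488 interactions in ESC, 448, 467 and 572 in DE, and 1076, 1046 and 2480 in erythrocytes. It was called higher in erythrocytes against ESC (log2 fold change 1.44 ± 0.38 SE, limma adjusted p = 0.025) and against DE (1.50 ± 0.36, limma adjusted p = 0.029). The fragment chr11:32198229-32199492 was also called in both, with 524 to 552 interactions in ESC, 492 to 580 in DE and 1267, 973 and 1976 in erythrocytes (1.31, limma adjusted p = 0.022, and 1.34, limma adjusted p = 0.020).

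Between these lies chr11:32198004-32198228, with 558, 656 and 712 interactions in ESC, 370, 376 and 533 in DE and 698, 910 and 2016 in erythrocytes. It was called higher against DE (1.35 ± 0.41, limma adjusted p = 0.0497) but not against ESC (0.76 ± 0.41, limma adjusted p = 0.16). Per 100000 of all interactions none of the 3 fragments was called: their changes in order were 0.57, -0.12 and 0.44 against ESC (limma adjusted p = 0.27 to 0.84) and 0.72, 0.58 and 0.57 against DE (limma adjusted p = 0.13 to 0.32). None of its 50-base words occurs a second time on chromosome 11, while 13.2% of those of the first fragment and 27.0% of those of the third do. The first of the following lines gives this fragment, and the second gives chr11:32203108-32203405, the first fragment whose erythrocyte mean lay below both other means. Both are shown in full on the plus strand of mm9, from cut site to cut site, because the direction turns between them, and neither holds capitals since no motif is marked.
chr11:32198004-32198228: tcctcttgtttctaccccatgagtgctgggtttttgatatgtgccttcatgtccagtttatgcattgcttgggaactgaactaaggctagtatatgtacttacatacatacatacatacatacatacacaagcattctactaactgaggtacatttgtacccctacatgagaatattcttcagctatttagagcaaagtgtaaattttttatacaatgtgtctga
chr11:32203108-32203405: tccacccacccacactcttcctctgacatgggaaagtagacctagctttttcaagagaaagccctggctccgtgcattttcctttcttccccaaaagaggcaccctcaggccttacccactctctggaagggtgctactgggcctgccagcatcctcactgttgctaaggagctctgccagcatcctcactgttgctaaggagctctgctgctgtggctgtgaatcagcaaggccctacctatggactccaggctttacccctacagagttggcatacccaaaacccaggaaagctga

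The second of these, 5.51 kb into the flank, had 237, 207 and 212 interactions in ESC, 178, 202 and 202 in DE and 66.5, 188 and 141 in erythrocytes. It was not called in any comparison. The fragments before it, up to 5.51 kb, all had an erythrocyte mean above both other means, including the one that holds the Hbq1a match (chr11:32199493-32200137; 763 ± 309 in erythrocytes, 562 ± 45.6 in ESC and 456 ± 28.0 in DE, SD, n = 3).

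Over the flank 730 fragments had enough reads to be tested between erythrocytes and ESC. The 2 fragments named above were called higher and 379 lower, against 2.58 and 31.5% of the tested fragments of chromosome 11. Between erythrocytes and DE 791 were tested, of which 3 were called higher and 343 lower, against 1.93 and 27.8%. Between DE and ESC none of 819 was called by limma in either direction, as on the whole chromosome (0% of tested fragments). At an unadjusted p under 0.05 the number was 125, of which 117 were lower, with no chromosome share given.

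**Figure D3:**
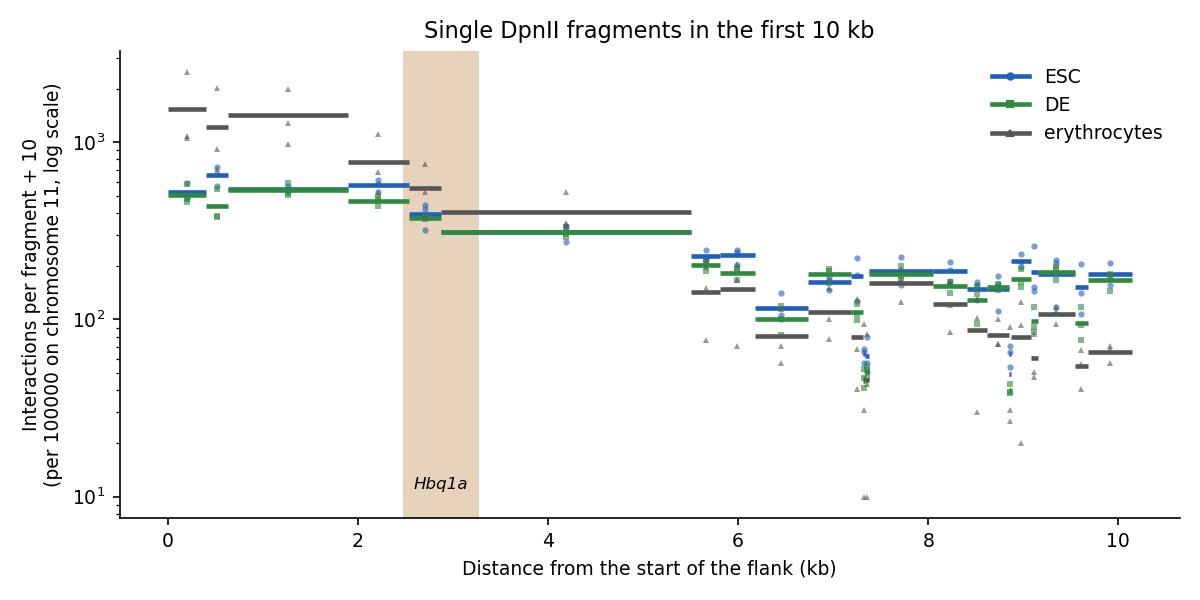
Interactions plus 10 of every DpnII fragment in the first 10 kb of the flank (log axis) against the distance from its start in kb, per 100000 on chromosome 11. Bars span the fragment and give the mean of 3 libraries, points are single libraries and the shaded band is Hbq1a; on this scale the erythrocyte means lie above the others up to 5.51 kb and below them in the next fragment.

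The flank fell in erythrocytes along nearly its whole length. Against ESC 68 of 80 bins were called lower and 0 higher (limma, adjusted p under 0.05), against 15.8 and 2.59% of 1427 bins tested on chromosome 11. At an unadjusted p under 0.05 the number was 75, all lower, with no chromosome share given. In 76 bins every erythrocyte library lay below every ESC library, against 29.8% of all tested bins. The median change was -2.17, against -0.35 over all tested bins, with a range from -3.46 to 0.91. edgeR called 74 lower and 1 higher, against 201 and 57 of the 1427 tested bins. DESeq2, with its own size factors, called 72 and 1, against 162 and 40. The higher bin was the first.

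Against DE 50 bins were called lower and 0 higher (limma), against 8.64 and 1.22% of 3760 bins tested. At an unadjusted p under 0.05 the number was 74, of which 73 were lower, with no chromosome share given. Erythrocytes lay below DE without overlap in 73 bins, against 32.8% of all tested bins. The median change was -1.80, against -0.31 over all tested bins. edgeR called 67 lower and 1 higher, against 274 and 95 of the 3760 tested bins. DESeq2, with its own size factors, called 77 and 0, against 436 and 22. Its median change over all tested bins was -1.57 in place of -0.31, so the 2 counts are not on the same scale. Both erythrocyte counts fell when any 1 library of the other cell type was left out, as did those of the whole chromosome. Without ESC replicate 1, 2 or 3 the count against ESC was 13, 29 or 32. The whole chromosome then had 18, 55 or 70 bins called lower. Without DE replicate 1, 2 or 3 the count against DE was 0, 0 or 11, and the chromosome had 0, 0 or 66. The median changes then stayed between -2.24 and -2.12 against ESC and between -1.84 and -1.75 against DE.

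DE was lower than ESC by a smaller amount, which varied along the flank, with median changes of -0.18 in the first 50 kb, -0.39 from 50 to 340 kb and -0.14 beyond. None of the 80 bins was called in either direction by limma (0% of 4443 tested bins lower and 0.0225% higher), and 19 had an unadjusted p under 0.05, all lower (1.67% of tested bins). In 48 bins every DE library lay below every ESC library, against 4.14% of all tested bins, and in 0 the reverse held. The median change was -0.31, against 0.13 over all tested bins, and 74 of 80 changes were below 0. edgeR called 20 bins lower (0.698% of tested bins) and DESeq2 0. The lowest limma adjusted p was 0.32, for the bin from 260 to 265 kb in Stk10, which had 174, 175 and 151 interactions in ESC and 85.1, 79.7 and 111 in DE.

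**Figure D4:**
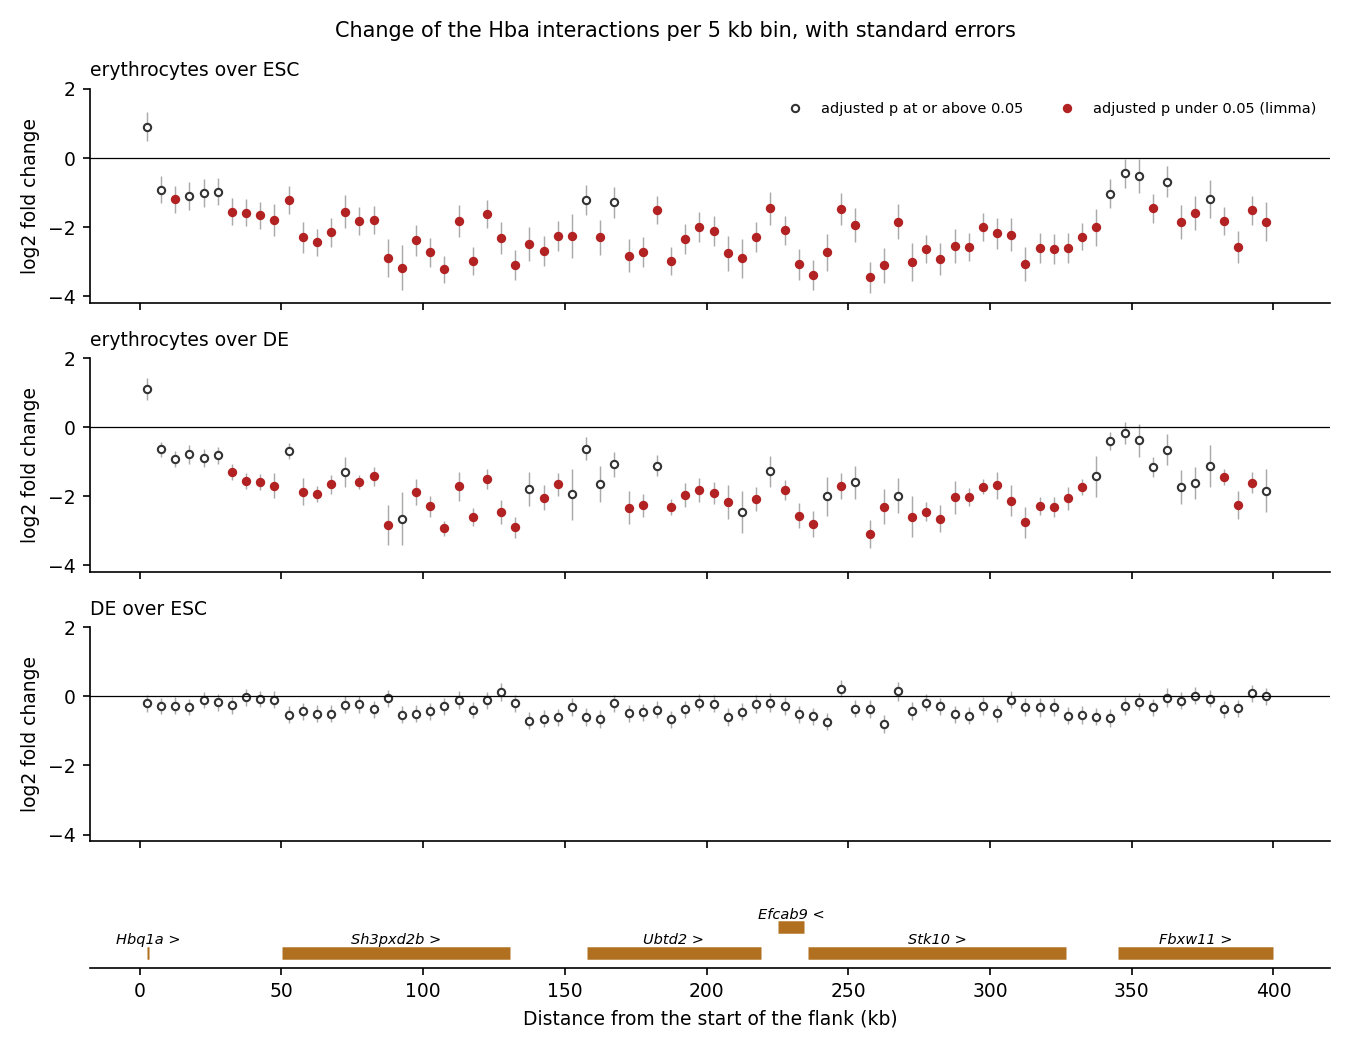
Log2 fold change of the Hba interactions with its standard error (limma) for each 5 kb bin of the flank against distance from its start in kb, for erythrocytes over ESC, erythrocytes over DE and DE over ESC. Filled points have an adjusted p under 0.05 and open points do not: 68, 50 and 0 bins are filled, all below 0, and most points between 50 and 340 kb lie near -2 in both erythrocyte panels.

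The fall was not even along the flank. In the first 50 kb, 5 of 10 bins were called against ESC with a median change of -1.14, and 4 of 10 against DE with a median of -0.91. Between 50 and 340 kb, 56 of 58 bins were called against ESC with a median of -2.36, and 43 of 58 against DE with a median of -1.99, that is 5.12-fold and 3.98-fold. In the last 12 bins, from 340 to 400 kb, 7 and 3 were called, with medians of -1.49 and -1.29. The limits of 50 and 340 kb were chosen after the values were seen.

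The bins farther than 20 kb with the highest levels were the same in all 3 cell types, those from 20 to 25, 25 to 30 and 30 to 35 kb, between Hbq1a and Sh3pxd2b. The bin from 20 to 25 kb, which holds a CTCF match, had 1219, 1348 and 1177 interactions in ESC, 1136, 1153 and 1181 in DE and 689, 753 and 454 in erythrocytes. DE and ESC were close here (-0.11 ± 0.24 SE), and the erythrocyte libraries lay clearly below both, without a call (limma adjusted p = 0.10 against ESC and 0.068 against DE). The profile did not fall smoothly: the bin from 15 to 20 kb, which also holds a match, exceeded the one from 10 to 15 kb in 9 of 9 libraries. Its levels were 1660 to 1730 in ESC, 1218 to 1488 in DE and 835, 1041 and 565 in erythrocytes, against 1285 to 1339, 1003 to 1133 and 523, 716 and 484 in the nearer bin.

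The largest falls among called bins overlapped Sh3pxd2b or Stk10, though the bin from 130 to 135 kb lay mostly past the end of Sh3pxd2b. The bin from 255 to 260 kb, in Stk10, had 144, 160 and 119 interactions in ESC, 116, 114 and 90.6 in DE and 0, 15.7 and 0 in erythrocytes, where only 3 reads were seen in all. Its change was -3.46 ± 0.46 against ESC (SE, limma adjusted p = 0.00085) and -3.09 ± 0.40 against DE (limma adjusted p = 0.012). The bin from 235 to 240 kb, which holds the start of Stk10, had 142, 157 and 174 in ESC, 92.0, 130 and 87.4 in DE and 16.6, 5.23 and 0 in erythrocytes (5 reads), with changes of -3.39 and -2.81.

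In Sh3pxd2b the bin from 105 to 110 kb fell from 233, 292 and 221 in ESC and 198, 212 and 191 in DE to 12.5, 20.9 and 20.2 in erythrocytes (changes of -3.22, limma adjusted p = 0.00085, and -2.93, limma adjusted p = 0.0050). The bins from 90 to 95 and 260 to 265 kb completed the 5 largest falls against ESC, at -3.18 and -3.10. Those from 130 to 135 and 85 to 90 kb completed the 5 against DE, at -2.90 and -2.83. In each of the last 4 bins named, 1 erythrocyte library had 0 interactions and the 3 together held 4 to 24 reads, so these falls rest on few reads.

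Of the bins around the start of Fbxw11, 4 stood out by their small change, and were picked out after the values were seen. From 340 to 345 kb the ESC libraries had 117, 185 and 140 interactions, DE 104, 86.0 and 82.7 and erythrocytes 49.8, 94.1 and 60.5, a change of -1.03 against ESC. From 345 to 350 kb, the bin with the Fbxw11 start, ESC had 66.1, 60.7 and 61.1, DE 66.3, 46.6 and 39.7 and erythrocytes 29.1, 68.0 and 40.3 (-0.44). The bins from 350 to 355 and 360 to 365 kb changed by -0.53 and -0.69. None of the 4 was called against ESC, and they held 24 to 38 erythrocyte reads each. Erythrocyte replicate 2 had the highest erythrocyte level in all of them. They were not an unbroken run, since the bin from 355 to 360 kb was called against ESC at -1.46 (limma adjusted p = 0.025). The bin before the 4, from 335 to 340 kb, was called at -2.01. Those from 155 to 160, 165 to 170 and 375 to 380 kb were also not called against ESC, at -1.22, -1.28 and -1.19.

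By gene, the bodies of Sh3pxd2b, Ubtd2, Efcab9 and Stk10 all fell in erythrocytes against both other cell types. Each gene was read as the sum of the fragments within it, and each promoter as the fragments overlapping 1 kb to each side of the start, which gave 12 regions. Against ESC 7 of the 12 were called lower, against DE 6, and none higher. Over the same kind of regions for every gene of chromosome 11 with enough reads, 3.33% of 751 were called lower and 6.39% higher against ESC, and 3.78% of 1165 lower and 4.55% higher against DE, with the flank counts unchanged in that fit. Without DE replicate 2 the count against DE was 0, and without DE replicate 1 it was 3. Between DE and ESC 0 of the 12 were called, as 0% of 1152 over the chromosome (limma, with 2 at an unadjusted p under 0.05 and 3 called by edgeR).

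The Sh3pxd2b body had 4547, 4330 and 4274 interactions in ESC, 3449, 3387 and 3286 in DE and 835, 1020 and 807 in erythrocytes. These groups were well apart, and the change was -2.30 ± 0.38 against ESC (SE, limma adjusted p = 0.0015) and -1.92 ± 0.20 against DE (limma adjusted p = 0.0071). The Stk10 body had 2827, 2638 and 2483 in ESC, 2015, 2020 and 1911 in DE and 432, 303 and 272 in erythrocytes, with the largest change of the 6 bodies, -2.97 ± 0.39 and -2.55 ± 0.24 (limma adjusted p = 0.00083 and 0.0069).

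The Ubtd2 body had 1924, 2119 and 2009 interactions in ESC, 1323, 1506 and 1520 in DE and 295, 502 and 313 in erythrocytes (changes of -2.46 and -1.98). The Efcab9 body, the shortest of these, had 237, 298 and 215 in ESC, 158, 193 and 196 in DE and 29.1, 26.1 and 30.2 in erythrocytes (-2.75 and -2.32), on 15 erythrocyte reads. The Fbxw11 body up to the end of the flank had 876, 839 and 837 in ESC, 772, 744 and 816 in DE and 307, 512 and 161 in erythrocytes. It was called against ESC (-1.50, limma adjusted p = 0.033) and not against DE (-1.37, limma adjusted p = 0.077), and the call against ESC was lost in 5 of 6 fits that left out 1 library.

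The Hbq1a body, a single fragment, differed from the rest, with 411, 435 and 308 interactions in ESC, 365, 368 and 359 in DE and 374, 512 and 746 in erythrocytes. Its change was 0.45 against ESC and 0.51 against DE, neither called (limma adjusted p = 0.49 and 0.27). The fragments around its start gave 1831, 1743 and 1776 in ESC, 1630, 1661 and 1647 in DE and 2642, 2337 and 4345 in erythrocytes (0.74, limma adjusted p = 0.21, and 0.86, limma adjusted p = 0.10). Both the gene and its start fell against ESC when levels were taken per 100000 of all interactions instead, by 0.42 and 0.14 on the log2 scale, and the body also fell against DE, by 0.25.

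The starts of the other 5 genes did not move alike. The Stk10 and Efcab9 promoters, which lie back to back and share fragments, fell against ESC by 2.62 and 2.16 on the log2 scale (limma adjusted p = 0.0014 and 0.0028), on 3 and 2 erythrocyte reads. The Sh3pxd2b promoter had 137, 167 and 183 interactions in ESC, 108, 110 and 105 in DE and 83.1, 62.8 and 80.7 in erythrocytes, a change of -1.01 ± 0.39 against ESC that was not called (limma adjusted p = 0.090). The Ubtd2 promoter had 41.6, 32.0 and 58.1 in ESC, 21.8, 49.7 and 31.8 in DE and 24.9, 36.6 and 50.4 in erythrocytes, so the 3 cell types overlapped (-0.20 ± 0.41 against ESC, and 0.10 ± 0.32 against DE). The Fbxw11 promoter changed by -0.70 ± 0.41 against ESC and -0.32 ± 0.27 against DE, neither called.

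Set against the 5 to 15 kb on both sides, per kb, the Sh3pxd2b promoter stood at 0.70 of its neighbourhood in ESC (0.572 to 0.831), 0.55 in DE (0.531 to 0.575) and 1.33 in erythrocytes (0.957 to 1.80). The Ubtd2 promoter stood at 0.37, 0.41 and 1.59, with all 3 erythrocyte libraries between 1.43 and 1.88. In both, every erythrocyte library lay above every library of the other cell types. The Stk10 promoter ran the other way, at 1.56, 1.17 and 0.43, and so did the Efcab9 promoter that shares its fragments, at 0.88, 1.04 and 0.29. The Fbxw11 promoter stood at 0.82, 0.80 and 1.95, but its erythrocyte libraries spread from 0.659 to 4.17 and overlapped the others, so 2 of the 5 promoters lay clear above in erythrocytes. These ratios rest on 40, 18, 3, 2 and 11 erythrocyte reads in the order named, were computed after the promoter values were seen, and have no test.

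None of the 12 regions was called between DE and ESC by limma. The Sh3pxd2b, Ubtd2 and Stk10 bodies nonetheless lay lower in all DE libraries than in all ESC libraries, by 0.38, 0.48 and 0.42 on the log2 scale (SE 0.24 each, limma adjusted p = 0.60, 0.54 and 0.58). edgeR called these 3 bodies.

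Whether the loss was a property of the downstream side was examined against the upstream side, on which the globin enhancers lie, over the same length and distances from the nearest captured fragment. The upstream side held 31.0, 29.5 and 28.9% of chromosome 11 interactions in ESC, 26.4, 26.5 and 25.6% in DE, and 29.7, 38.7 and 33.0% in erythrocytes. There erythrocytes lay above DE without overlap and overlapped with ESC (p = 0.1 and 0.2, permutation over libraries, exact and two-sided). Of the interactions on both sides together, the downstream flank held 45.1% ± 0.759 in ESC, 43.1% ± 0.159 in DE and 27.3% ± 2.99 in erythrocytes (SD, n = 3), with the erythrocyte libraries at 27.7, 24.1 and 30.0%. No 2 cell types overlapped (exact two-sided permutation test, p = 0.1, adjusted 0.12). This ratio does not depend on the total used.

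The imbalance in erythrocytes was largest at 20 to 100 kb. From 20 to 50 kb the 3 erythrocyte libraries had 64.6, 63.6 and 42.9 interactions per kb downstream and 353, 486 and 335 upstream, whereas the ESC libraries had 137 to 146 downstream and 165 to 180 upstream. The log2 ratio of downstream over upstream was -2.78 ± 0.29 in erythrocytes, -0.31 ± 0.055 in ESC and -0.20 ± 0.073 in DE. From 50 to 100 kb it was -2.73, -0.90 and -1.16 in erythrocytes, ESC and DE.

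From 100 to 200 kb the ratio was -1.06, -0.35 and -0.51, so a smaller imbalance remained. Both sides were low in erythrocytes, with 5.85 to 8.58 interactions per kb downstream and 10.7 to 17.6 upstream. Upstream, ESC had 48.0 to 49.8 there and DE 39.8 to 40.9. Beyond 200 kb upstream the erythrocyte libraries had 7.15, 6.77 and 3.70, against 17.6 to 19.2 in ESC and 21.9 to 23.5 in DE. The loss beyond 100 kb was thus not particular to the downstream side. From 200 kb to the end of the flank erythrocytes (-0.35 ± 0.13) and DE (-0.28 ± 0.040) overlapped (exact two-sided permutation test, p = 0.6), while ESC had more contact downstream than upstream (0.40 ± 0.099) and lay above both without overlap (exact p = 0.1). In the first 20 kb the ratios were -0.77, -0.27 and -0.17, again lowest in erythrocytes. The difference between erythrocytes and ESC or DE in this ratio gave exact p = 0.1 in all windows except that of DE beyond 200 kb, with an adjusted value of 0.12 over 15 comparisons.

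**Figure D5:**
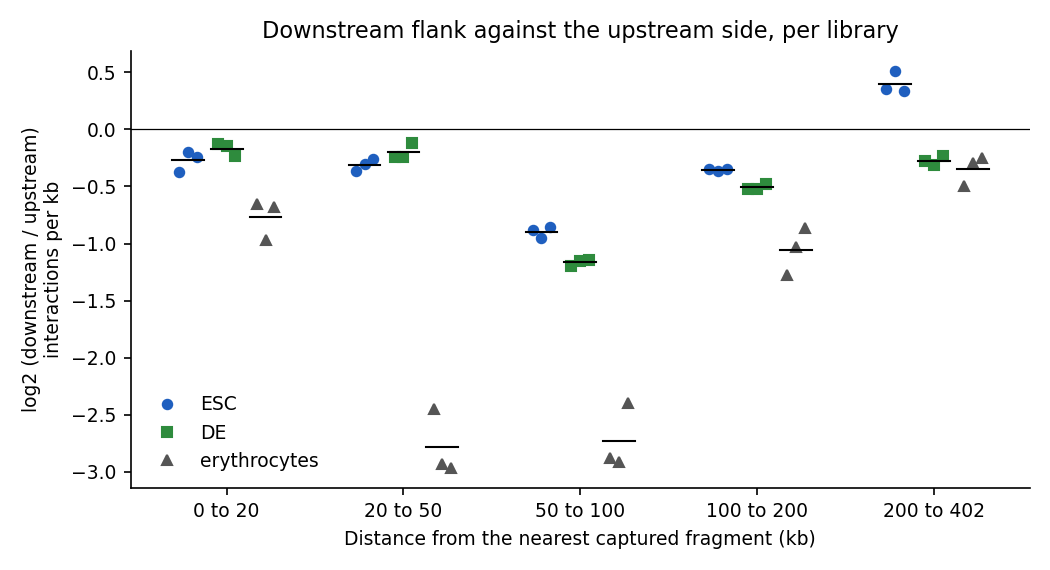
Log2 ratio of interactions per kb on the downstream flank over the upstream side of the Hba viewpoint in 5 distance windows (kb from the nearest captured fragment). Points are single libraries and lines are means of 3; the erythrocyte libraries lie between -2.97 and -2.40 in the windows from 20 to 100 kb, where no ESC or DE library is below -1.20.

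Bins with and without a CTCF match were compared by their medians only, and a link was not tested. Bins in the first 50 kb were left out, a limit chosen after the values were seen. Beyond 50 kb the 14 bins with a match had a median change of -2.26 against ESC and -1.89 against DE, and the 56 bins without one had medians of -2.29 and -1.89. The bin from 325 to 330 kb, which holds the match without a mismatch, changed by -2.62 ± 0.44 against ESC (SE, limma adjusted p = 0.0015), on 4 erythrocyte reads.

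At the level of single fragments the erythrocyte data were sparse. Of the 867 fragments, 737 had a read in all 3 ESC libraries and 782 in all 3 DE libraries, but 101 in all 3 erythrocyte libraries, and 335 had no erythrocyte read at all, against 35 each in ESC and DE. The flank held 33005 reads in ESC, 57720 in DE and 6484 in erythrocytes. Reads that would fall in the flank if those on other chromosomes were spread evenly made up at most 0.314% of the flank reads of any promoter library.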

How the data were processed

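NG Capture-C libraries of ESC, DE and erythrocytes (3 each) were read from the Hba columns of the promoter and enhancer captures. The deposited values are a signal per DpnII fragment that the authors scaled to 100000 interactions per viewpoint and library. The submitters' processing notes name Trim Galore, Bowtie and mm9, with no version stated, and the study's methods describe the Capture-C scripts, with FourCSeq and DESeq2 for its statistics. Dividing each column by the value of 1 read gave whole numbers, within 0.05 of a read, for 100% of values in all 18 columns, so reads were recovered. The captured fragments (chr11:32182317-32184781 and chr11:32194990-32197598) carry no value.

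Here reads were rescaled to 100000 on chromosome 11 and summed over the flank, 5 kb bins from its start, genes and promoters. The main test was limma 3.58.1 (R 4.3.3) on log2(level + 10), using only the 2 cell types compared and all chromosome 11 bins with at least 10 reads, called at 0.05 after Benjamini-Hochberg adjustment. For single sums the libraries were permuted exactly and two-sided (Python 3.11.15, numpy 2.4.6), and the Wilson intervals came from scipy 1.17.1. Alternatives were edgeR 4.0.16 and DESeq2 1.42.0 on the recovered reads, other totals, size factors, pseudocounts of 2 and 50, no minimum, 10 kb bins, single fragments, all cell types in the fit, a replicate block, leaving out each library and, added after the data were seen, limma with a mean trend, the start of the flank per all interactions and a fit with the regions of all chromosome 11 genes. The limma step was also run on simulated reads with the same spread in all libraries. The real erythrocyte libraries differed more from each other than the ESC libraries did, so nothing is concluded from that run. Bins were named where they were among the 5 largest changes of called bins without overlap, or the 3 highest levels beyond 20 kb per cell type, and genes where they start in the flank; other bins and fragments named were chosen after their values were seen. Genes came from the gencode annotation of NCBIM37, the assembly of mm9, with all fragments in the files matching its DpnII digest. The region and the lists were chosen with earlier results of these data known. Replicates were compared by chi-square per degree of freedom, which was 1.22 to 8.26 between libraries of a cell type, and none was counted as a repeat of another. Depth was 9919 to 126710 reads on chromosome 11 per promoter library, and reads carry no molecular identifiers here.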

Additional observations from a re-analysis of the deposited data

How the results depend on the processing

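The flank share kept its direction under all totals tried: the log2 ratios ran from -1.70 to -0.71 for erythrocytes over ESC, from -1.29 to -0.30 for erythrocytes over DE and from -0.70 to -0.30 for DE over ESC. With the first 20 kb left out of the flank they were -2.00, -1.67 and -0.33. Leaving out 1 library gave ranges of -1.05 to -0.89, -0.75 to -0.58 and -0.32 to -0.29. For the windows, leaving out 1 library moved the log2 ratio of erythrocytes over ESC in the first 20 kb between -0.20 and 0.14, and the difference of erythrocytes from DE in the downstream over upstream ratio beyond 200 kb between -0.11 and 0.0057. All other windows and the slopes kept their sign.

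Between erythrocytes and ESC 68 of 80 flank bins were called. This became 33 of 40 with 10 kb bins and 381 of 730 with single fragments. It was 44 without a minimum count, 29 with a pseudocount of 2, and 13 to 66 with 1 library left out. Over chromosome 11 these fits, in order, called 133 of 1809, 635 of 2015, 127 of 14261, 142 of 1427 and 18 to 228 lower. The main fit called 226 of 1427 lower. Between erythrocytes and DE, 50 of 80 became 29 of 40 and 346 of 791 with 10 kb bins and fragments. It was 26 without a minimum count, 27 with a pseudocount of 2, 76 with DESeq2 size factors and 77 with DESeq2. With 1 library left out it was 0 to 60. Over chromosome 11 these fits, in order, called 180 of 4432, 951 of 3419, 206 of 19370, 410, 697 and 436 of 3760, and 0 to 330 lower. The main fit called 325 of 3760 lower, so part of these moves was shared by the chromosome. Between DE and ESC the 0 calls became 20 with edgeR, 17 with a pseudocount of 50 and 16 with a mean trend. Over chromosome 11 these fits called 31, 24 and 27 of 4443 bins lower. The cause of these differences between fits was not tested. Per 100000 of all interactions the fragments called higher at the start of the flank were not called. A pair of cell types with 1 library left out has fewer samples, and all bins then called lower against DE on the whole chromosome numbered 0 without DE replicate 1 or 2. For the 12 gene and promoter regions, the calls between erythrocytes and DE ran from 0 (without DE replicate 2) to 7 with 1 library left out, and those between DE and ESC became 3 with edgeR, 4 with a pseudocount of 50 and 3 with a mean trend.

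Single regions without a call changed sign as follows. Per 100000 of all interactions the Hbq1a body stood at -0.42 against ESC and -0.25 against DE, its promoter at -0.14 against ESC and the Ubtd2 promoter at -0.48 against DE, and with edgeR the last stood at -0.024. With 1 library left out the Ubtd2 promoter ran from -0.39 to 0.0052 against ESC and from -0.11 to 0.34 against DE, and between DE and ESC the Hbq1a body ran from -0.21 to 0.031 and the Efcab9 promoter from -0.21 to 0.077.

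The replicate numbers did not pair the samples: deviations of same-numbered libraries from their cell type's mean correlated at -0.22 to 0.16 over bins. With the number as a block, 67, 58 and 0 bins and 7, 6 and 0 regions were called for erythrocytes against ESC, erythrocytes against DE and DE against ESC. Over chromosome 11 the block fit called 238 of 1427 bins lower and 50 higher against ESC. Against DE it called 265 of 3760 lower and 37 higher, where the main fit called 325 lower. Between DE and ESC it called 0 of 4443 lower and 1 higher. No chromosome share of the regions is given for this fit. Depth limits the erythrocyte values most, since 1 read was worth up to 10.1 interactions there. Erythrocyte replicate 3, the shallowest, had the highest first bin.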

Other observations

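The other viewpoints of the promoter capture reached the flank little. From Lhx1, a promoter on the same chromosome, the flank received 34.7 to 43.9 interactions per 100000 of all interactions in DE, 15.5 to 36.2 in ESC and 0 to 93.9 in erythrocytes, on 42, 13 and 9 reads. From Eomes, Foxa2, Hbb and Slc25a37, which lie on other chromosomes, it received at most 63.1 in any library, that value being from Slc25a37 in an erythrocyte library. From Hba it received 3161 to 17940 on the same scale.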
